A study of Mus musculus with 12 samples.

Results

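The heat shock proteins and chaperones followed here are 10 genes listed by name, with no threshold on measured values: Hspa1a, Hspa1b, Hspa5, Hspa8, Hsp90aa1, Hsp90ab1, Hsph1, Dnajb1, Hspd1 and Hspe1. Of these, 9 were paired with a probe set in the platform's gene table, through 20 of the 22626 probe sets tested, and Hsp90ab1 was not analysed here. The 9 genes stand among 12393 that the table names. Spleen RNA from 12 mice was hybridised to Affymetrix MOE430A 2.0 arrays, with 1 mouse to an array and 3 mice to a group. The groups were wild-type mice (DUSP1+/+) and knockout mice (DUSP1-/-). In both genotypes 1 group was untreated (control) and 1 was taken 6 h after an intraperitoneal dose of E. coli lipopolysaccharide (LPS) of 10 µg per g of body weight. Strain, age, sex and the way the Dusp1 allele was made are not given in the sources used here. The design asks how loss of Dusp1, a phosphatase that turns off MAP kinases, alters the response to LPS.

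Chaperones bind unfolded or newly made proteins and help them to fold. In the cytosol, Hsp70 proteins work with J-domain partners such as Dnajb1, which bring substrates and stimulate ATP hydrolysis, and with exchange factors such as Hsph1, which release the nucleotide. Hsp90 proteins finish the folding of kinases and receptors, Hspa5 (BiP) is the Hsp70 of the endoplasmic reticulum (ER), and Hspd1 with its lid Hspe1 forms the chaperonin of mitochondria. Heat and other protein-damaging stress induce many of these genes through heat shock factor 1, which binds inverted repeats of the unit GAA, while ER stress induces Hspa5 through the ER stress element.

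Stretches before the transcription starts of some of the members show these elements. The sequences are from RefSeq on GRCm38.p6, each read 5′ to 3′ on the gene's strand in lower case, with the fixed letters of the element in capitals. Hspa1a (chr17:34972157-34972306, minus strand) and its neighbour Hspa1b (chr17:34959239-34959388, minus strand) are shown because they are nearly alike, with 149 of 150 bases identical. Hsph1 (chr5:149636337-149636486, minus strand) is shown as the member that fell in both genotypes. Hspa5 (chr2:34771940-34772089, plus strand) is shown for its different element. For these 4 genes the stretch is the 150 bases before the start, and for Hspe1 (chr1:55088053-55088082, plus strand) it is 30 bases around an element of the region it shares with its neighbour Hspd1.
Hspa1a: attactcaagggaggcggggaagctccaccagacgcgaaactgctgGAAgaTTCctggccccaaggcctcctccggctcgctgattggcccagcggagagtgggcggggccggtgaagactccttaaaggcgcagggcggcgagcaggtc
Hspa1b: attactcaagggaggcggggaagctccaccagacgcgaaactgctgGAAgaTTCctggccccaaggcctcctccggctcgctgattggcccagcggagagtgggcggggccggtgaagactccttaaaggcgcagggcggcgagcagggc
Hsph1: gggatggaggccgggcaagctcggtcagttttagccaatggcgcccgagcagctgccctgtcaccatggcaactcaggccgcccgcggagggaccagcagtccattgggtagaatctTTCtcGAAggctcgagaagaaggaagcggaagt
Hspa5: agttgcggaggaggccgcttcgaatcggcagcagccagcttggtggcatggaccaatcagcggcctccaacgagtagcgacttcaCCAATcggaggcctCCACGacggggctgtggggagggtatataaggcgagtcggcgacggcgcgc
Hspe1: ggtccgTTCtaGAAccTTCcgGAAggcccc

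Windows of 300 bases around the starts (250 before, 50 after) were searched for these letters. A pair of units, GAANNTTC or TTCNNGAA, each its own reverse complement so that 1 search covers both strands, lay in 15.1% of all 32851 windows and in those of Hspa1a, Hspa1b, Hsph1, Hspd1 and Hspe1. A run of 3 units (either pair followed by NN and a further unit of opposite sense, on both strands), which overlaps the pairs, lay in 0.603% of all windows and in those of Hsph1, Hspd1 and Hspe1. The ER stress element, CCAAT and CCACG with 9 bases between them, on either strand, lay in 0.119% of all windows and, among the members, in that of Hspa5. The run of 3 units in the Hsph1 windows lies after the start, outside the stretch shown. The Dnajb1 windows held none of these letter patterns. No window was available for Hspa8, Hsp90aa1 or Hsp90ab1, so these members were not searched. A match describes letters in a window, not a bound site.

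Some arrays, mostly controls, stood apart before any comparison was made. B cell markers (mean log2 intensity 10.0 to 11.4 over 4 genes) were high in all 12 arrays, as the labelled tissue, spleen, calls for. Controls 1 of the wild-type (12.88) and knockout group (11.66) and knockout control 3 (8.77) had high mean log2 intensities of pancreas markers (9 of the 12 listed), against 4.26 to 5.51 in the other 9 arrays. The ratio of 3′ to 5′ actin signal, a measure of RNA integrity, ran from 1.20 to 1.38 in 10 arrays but was 2.77 in the first wild-type control and 1.91 in the last knockout control. Wild-type controls 2 and 3 had a male pattern (Xist at 35 and 47, against 1101 to 3949 in the others). Eif2s3y, a further sex-linked marker, read 316 and 53 there, against 7 to 10 in the others. Uty and Kdm5d read 21 and 16 in wild-type control 2, but both read 11 in wild-type control 3, within the range of the others. Wild-type arrays gave Dusp1 intensities of 479, 1354 and 627 without LPS and 2248, 2142 and 2116 with it, and arrays labelled knockout gave 677, 1528 and 1443, and 4963, 2948 and 4996. Dusp1 was thus not lower in arrays labelled knockout. Which part of Dusp1 was changed in these mice is not given in the sources used here, so this signal does not check the labels on which every difference between genotypes rests.

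After LPS, Hsph1 fell in spleen of both genotypes and Dnajb1 fell in knockout spleen. In wild-type spleen 1 of 9 members fell, where 4.16% of all genes fell, and in knockout spleen 2 of 9 fell, where 9.71% of all genes did. None of the 9 rose, where 3.93% of all genes rose in wild-type and 5.54% in knockout spleen. At an unadjusted p under 0.05 there were 4 members (21.4% of all genes) in wild-type and 3 (28.2%) in knockout spleen, all lower with LPS except Hspa5 in knockout spleen. The members' median log2 difference was -0.50 in wild-type and -0.17 in knockout spleen, beside -0.03 and -0.06 over all genes, and the knockout median changed sign to 0.05 when arrays were shifted to a common median. The groups of 3 arrays did not overlap, with LPS lower, for 3 of the 9 in wild-type (Hspa1b, Hsph1 and Dnajb1; 14.8% of all genes) and for 2 of the 9 in knockout spleen (Hsph1 and Dnajb1; 17.6%). In bulk tissue, fewer cells that express a gene and less RNA per cell cannot be told apart. Markers of splenic mesenchyme, 3 of 3 listed, had a mean of 7.02 to 8.18 in wild-type controls against 5.88 to 5.94 with LPS, and 7.61 to 7.82 against 5.14 to 5.80 in knockout spleen. The mean of macrophage markers, 5 of 5 listed, went from 9.59 to 10.12 down to 8.27 to 8.49 in wild-type spleen. In knockout spleen it went from 9.22 to 9.72 down to 8.71 to 9.03. Limma called 3 of these 5 lower in wild-type and 2 in knockout spleen. Spic went the other way, with group means of 8.64 and then 9.25 in wild-type, and 8.25 and then 9.34 in knockout spleen. In the mesenchyme list Nkx2-5 did not fall in wild-type spleen (6.03 and then 6.13). T cell markers, 5 of 5, had median differences of -1.38 in wild-type and -1.02 in knockout spleen. The part of these cells in the falls was not tested.

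**Figure D1:**
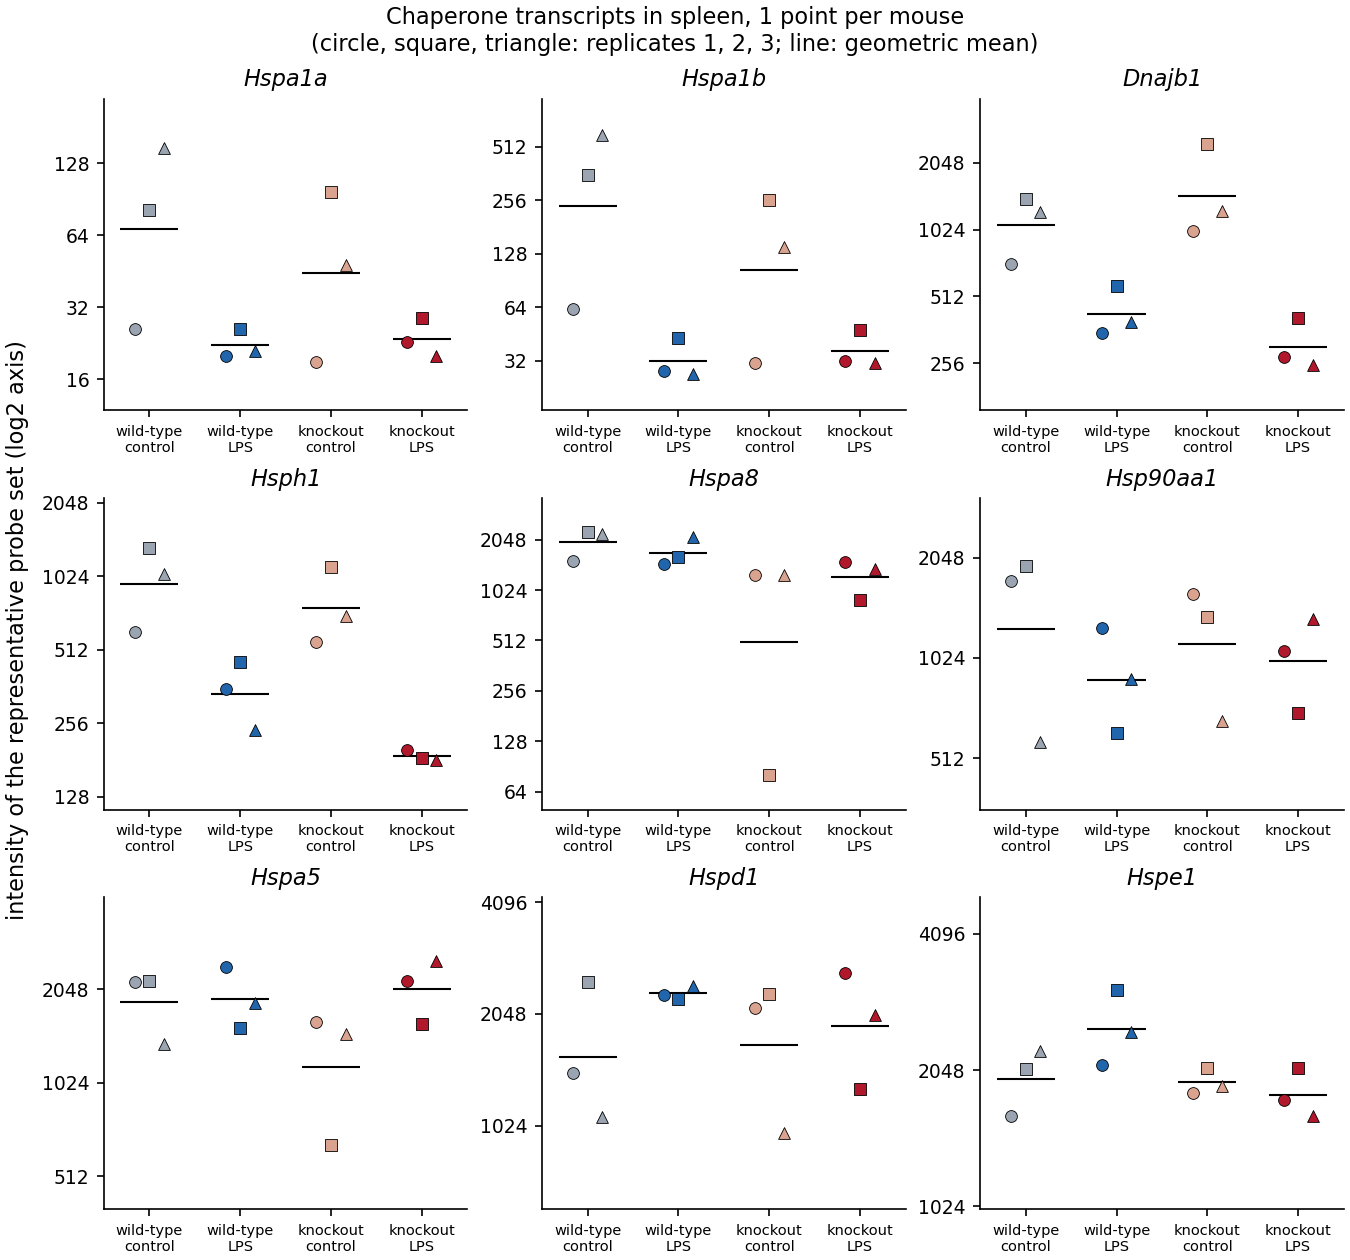
Intensity of the representative probe set of each of the 9 measured members in the 12 spleen arrays, on a log2 axis, by group; each point is 1 mouse (circle, square and triangle for replicates 1, 2 and 3), and the line is the geometric mean of 3 mice. Hsph1 and Dnajb1 sit lower in all LPS arrays than in all controls, the 2 Hsp70 genes Hspa1a and Hspa1b spread widely among the controls and little after LPS, and Hspa8 reads 80 in knockout control 2.

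Hsph1, the Hsp110 exchange factor of Hsp70, fell in both genotypes. Its probe set 1425993_a_at read 607, 1336 and 1048 in untreated wild-type mice and 352, 454 and 240 after LPS. In knockout spleen it read 551, 1120 and 703 in controls and 199, 185 and 181 after LPS. Every LPS array lay below every control array, also across genotypes, and the 3 knockout LPS arrays lay close together (SD 0.07 on the log2 scale, n = 3). The fall was 2.81-fold in wild-type spleen (log2 difference -1.49 ± 0.34, where ± is limma's standard error; adjusted p = 0.0273) and 4.02-fold in knockout spleen (-2.01 ± 0.34, adjusted p = 0.00384). The knockout call held with any 1 array left out, while the wild-type call was lost when LPS array 1 or 3 or control 2 or 3 of the wild-type mice was left out (adjusted p up to 0.129). The other Hsph1 probe set, 1423566_a_at, gave -1.24 ± 0.63 and -1.80 ± 0.63 and passed in neither genotype (adjusted p = 0.339 and 0.0952).

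Dnajb1, the J-domain partner also called Hsp40, was lower after LPS on the same pattern. Its probe set 1416755_at read 716, 1403 and 1229 in untreated wild-type mice and 352, 570 and 393 after LPS. In knockout controls it read 1006, 2476 and 1237, and after LPS 273, 410 and 252. Neither genotype's LPS arrays overlapped its controls. The fall in knockout spleen was 4.78-fold (-2.26 ± 0.37, adjusted p = 0.00322) and held with any 1 array left out, while the wild-type difference (-1.32 ± 0.37) did not pass (adjusted p = 0.0628). The wild-type difference passed without wild-type control 1, knockout control 1 or knockout control 2 (adjusted p down to 0.0288). The probe sets of Dnajb1 disagreed in size: 1416756_at gave differences of -0.59 ± 0.41 (wild-type) and -0.45 ± 0.41 (knockout), which did not pass (adjusted p = 0.529 and 0.578), with values of 273 to 865 in controls and 289 to 589 after LPS.

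Hspa1a and Hspa1b encode the stress-inducible Hsp70, and their near-identical sequences leave it uncertain which of the pair a probe set reports. Hspa1b, on probe set 1452318_a_at, read 63, 354 and 595 in untreated wild-type mice and 28, 43 and 27 after LPS. Knockout arrays read 31, 257 and 140 in controls and 32, 48 and 31 after LPS. The 6 LPS arrays thus lay together at or below the median probe set of an array (47 to 63), whereas the controls spread 19.2-fold, and knockout control 1 lay among the LPS values. The wild-type difference of -2.89 ± 0.84 (7.42-fold lower) did not pass (adjusted p = 0.0718), nor did that of -1.52 ± 0.84 in knockout mice (adjusted p = 0.307). It passed in wild-type spleen without wild-type control 1 or knockout control 1 (adjusted p down to 0.0185).

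Hspa1a read 26, 82 and 149 in untreated wild-type mice and 20, 26 and 21 after LPS. In knockout controls it read 19, 97 and 48, and after LPS 23, 29 and 20. It followed Hspa1b array by array at a dimmer signal, with groups that overlapped in both genotypes, and its differences of -1.62 ± 0.64 and -0.91 ± 0.64 did not pass (adjusted p = 0.185 and 0.440). The other Hspa1b probe sets, 1427126_at and 1427127_x_at, gave wild-type differences of -2.66 ± 0.95 and -2.76 ± 0.85, with groups that did not overlap, and knockout differences of -1.42 ± 0.95 and -1.77 ± 0.85, none past the threshold. On the representative probe sets, the differences of Hspa1a and Hspa1b with LPS were negative in both genotypes in all 24 alternatives tried.

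The spread of the Hsp70 pair among controls moved with the arrays that stood apart. Wild-type control 1 and knockout control 1, the lowest Hspa1b controls of their groups, were the arrays with the highest pancreas means (12.88 and 11.66), and wild-type controls 2 and 3, the highest, were those of male pattern. Knockout control 1 also had the highest erythroid precursor mean (10.43), followed by wild-type control 2 (9.39). The part of each trait was not tested. Without wild-type control 1 and knockout controls 1 and 3, the log2 difference of Hspa1b was -3.85 for wild-type (adjusted p = 0.00154) and -2.83 for knockout mice (adjusted p = 0.00563), and Hspa1a, Hsph1 and Dnajb1 fell in both genotypes as well. That fit rests on knockout control 2 alone as the knockout control, assumed to vary like the other groups. Knockout control 2 is the array with the highest liver mean (10.17). Without wild-type controls 2 and 3, the wild-type differences were -0.98 for Hspa1b (adjusted p = 0.712), -0.85 for Hsph1 (adjusted p = 0.373) and -0.74 for Dnajb1 (adjusted p = 0.555), and none passed. That fit leaves wild-type control 1 alone as the wild-type control, the array with the actin ratio of 2.77.

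**Figure D2:**
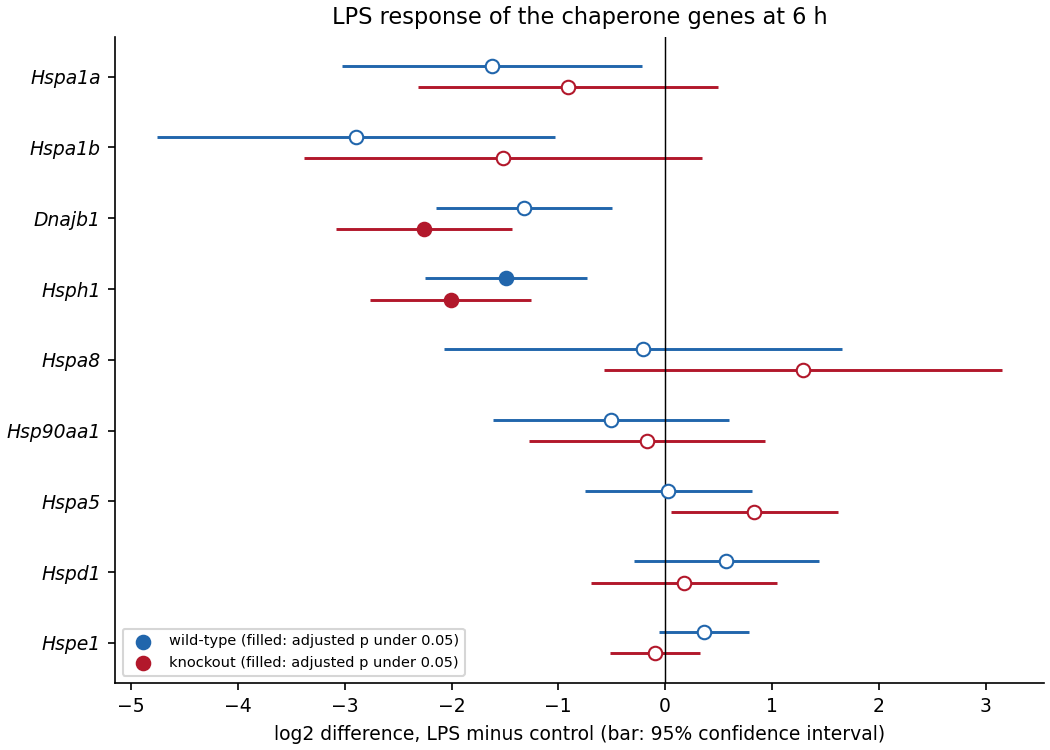
Log2 difference between LPS and control spleen for the representative probe set of each member in wild-type (blue) and knockout mice (red), with bars for the 95% confidence interval from limma and filled points for an adjusted p under 0.05. Hsph1 in both genotypes and Dnajb1 in knockout spleen are the filled points, all below 0, and the interval of Hspa1b spans from -4.75 to -1.03 in wild-type spleen.

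Hspa8 (Hsc70), the housekeeping Hsp70 that also uncoats clathrin, was read by 4 probe sets. The representative set 1420622_a_at read 1528, 2266 and 2228 in untreated wild-type mice and 1475, 1621 and 2117 after LPS. In knockout controls it read 1266, 80 and 1258, and after LPS 1505, 898 and 1369. A single array, knockout control 2, therefore set the low knockout control mean. The brightest set, 1420623_x_at, read 7375 in that same array, above the other knockout arrays, and 1455789_x_at read 1980 there against 3762 or more in the other 11.

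The LPS difference of Hspa8 on 1420622_a_at was -0.20 (95% confidence interval -2.07 to 1.66) in wild-type and 1.29 (-0.58 to 3.15) in knockout spleen, neither past the threshold. On 1420623_x_at it was 0.002 ± 0.26 and -0.30 ± 0.26. The dimmest set, 1431182_at, gave -0.99 ± 0.51, with wild-type LPS arrays (81 to 187) all below their controls (229 to 305), and -1.12 ± 0.51 (adjusted p = 0.343 and 0.203). Thus the Hspa8 probe sets differed in sign, and no direction is given for this gene. Without wild-type control 1 and knockout controls 1 and 3 the first set passed at 3.94 in knockout spleen, where the remaining control is the array at 80.

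Hsp90aa1, the inducible cytosolic Hsp90, varied within groups more than between them. Its probe set 1438902_a_at read 1748, 1932 and 573 in untreated wild-type mice and 1255, 610 and 887 after LPS. Knockout arrays read 1588, 1362 and 661 in controls and 1074, 699 and 1342 after LPS. Low values of 573 to 699 occurred in 1 array of each group, so that all groups overlapped. The LPS difference was -0.50 (-1.61 to 0.60) in wild-type and -0.17 (-1.27 to 0.94) in knockout spleen, and the other probe sets, 1426645_at and 1437497_a_at, gave -0.63 to -0.16 with no call.

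Hspa5 (BiP), the ER Hsp70 and a usual marker of ER stress, did not pass in either genotype with all 12 arrays. Its probe set 1416064_a_at read 2162, 2171 and 1365 in untreated wild-type mice and 2404, 1535 and 1852 after LPS. In knockout controls it read 1610, 643 and 1469, and after LPS 2167, 1585 and 2522. Wild-type groups overlapped, and in knockout spleen the lowest LPS array lay just under the highest control. The difference was 0.03 (-0.75 to 0.82) in wild-type and 0.84 (0.05 to 1.62) in knockout spleen, with an adjusted p of 0.990 and 0.169. The set 1427464_s_at gave -0.02 ± 0.24 and 0.49 ± 0.24, and there knockout control 2 read 1404, the highest of its group, where the first set had its lowest value. Acinar cells of the pancreas make much of this protein, and among controls Hspa5 read 2162 and 1610 in the arrays with pancreas means of 12.88 and 11.66, 1469 at 8.77, and 2171, 643 and 1365 in those at 5.51, 5.07 and 4.94. Without wild-type control 1 and knockout controls 1 and 3, Hspa5 passed as higher with LPS in knockout spleen at 1.68 (adjusted p = 0.0272), where the remaining control is the array at 643. The part of pancreas transcripts in these values was not tested.

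The mitochondrial chaperonin pair gave small differences. Hspd1 (Hsp60), the barrel, read 1417, 2502 and 1082 in untreated wild-type mice and 2308, 2251 and 2438 after LPS. Knockout arrays read 2124, 2313 and 977 in controls and 2638, 1286 and 2039 after LPS. The wild-type LPS arrays lay within the range of their controls, and the difference was 0.57 (-0.29 to 1.44) in wild-type and 0.18 (-0.69 to 1.04) in knockout spleen.

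Hspe1 (Hsp10), the lid, read 1619, 2061 and 2251 in untreated wild-type mice and 2101, 3075 and 2485 after LPS on probe set 1450668_s_at. In knockout controls it read 1819, 2071 and 1889, and after LPS 1756, 2066 and 1618. Its wild-type difference of 0.37 ± 0.19 (adjusted p = 0.352) and its knockout difference of -0.09 ± 0.19 (adjusted p = 0.836) did not pass. The other set, 1422579_at, gave 0.55 ± 0.23 and -0.08 ± 0.23, and its wild-type LPS arrays (746 to 1030) all lay above their controls (459 to 692), without passing (adjusted p = 0.218). Hspd1 and Hspe1 lie next to each other with no gene between them, on overlapping annotations.

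**Figure D3:**
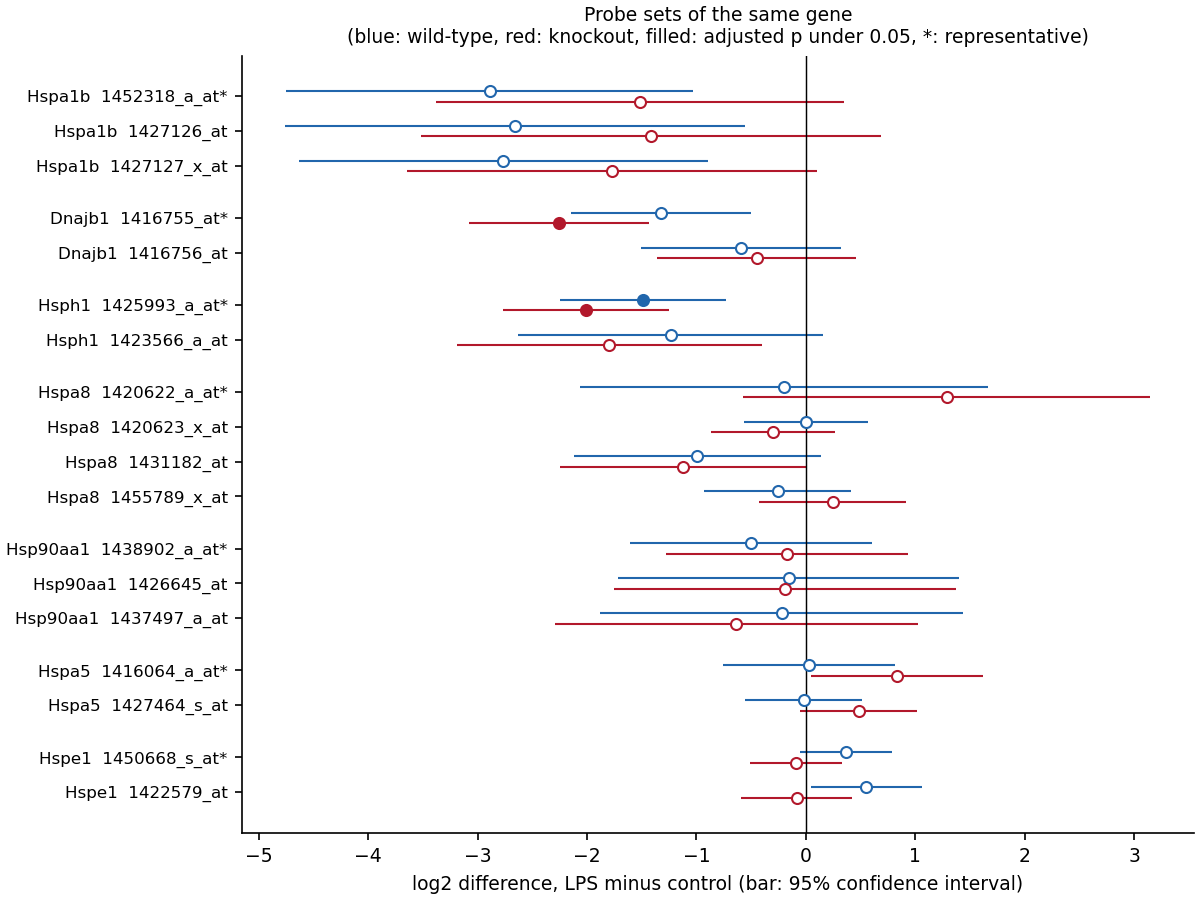
Log2 difference between LPS and control for every probe set of the members with more than 1, in wild-type (blue) and knockout spleen (red), with 95% confidence intervals from limma; filled points have an adjusted p under 0.05, and a star marks the representative set. Sets of Hspa1b lie together, 1 of the 2 Dnajb1 sets carries the fall in knockout spleen (-2.26 against -0.45), and the Hspa8 sets spread on both sides of 0.

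Between the genotypes no member was called. Lung markers were high only in arrays labelled knockout, and their part in the differences below was not tested. Among controls the fit called 0 of 9 members and 0% of all genes, and at an unadjusted p under 0.05 it held 1 member, Hspa8, where 1.42% of all genes did. Hspa8 read 1266, 80 and 1258 in knockout controls and 1528, 2266 and 2228 in wild-type controls, with knockout control 2 far under the others. The difference of -1.97 ± 0.84 did not pass (adjusted p = 1). The difference on the set 1455789_x_at was -0.74 ± 0.30, which did not pass either (adjusted p = 1). After LPS 0 of 9 members passed, where 0.363% of all genes did, and 2 had an unadjusted p under 0.05, where 10.2% of all genes did. These were Hsph1 (-0.84 ± 0.34, adjusted p = 0.490) and Hspe1 (-0.48 ± 0.19, adjusted p = 0.471). In both, all 3 knockout LPS arrays lay below all 3 wild-type LPS arrays, with 9.6% of all genes doing so. Weighting arrays by quality in limma gave a call for Hspe1 (adjusted p = 0.018), the only member so called. The weights also lowered the adjusted p of Hsph1 to 0.074 and that of Dnajb1 from 0.845 to 0.078. The gain was thus not particular to Hspe1.

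The LPS response itself was not shown to differ between genotypes for any member. The interaction, which is the knockout response minus the wild-type response, passed for 0 of 9 members and 0% of all genes in limma, and 0 of 9 had an unadjusted p under 0.05, where 6.46% of all genes did. For Hsph1 it was -0.52 (95% confidence interval -1.59 to 0.55), for Dnajb1 -0.93 (-2.10 to 0.23) and for Hspa1b 1.37 (-1.26 to 4.01). These intervals include equal responses and also differences of more than 2-fold, so Dnajb1, called in knockout but not in wild-type spleen, is not shown to respond more strongly there. Both LPS responses and both genotype differences share arrays within this design.

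Lists of other chaperone and stress genes, 101 of 110 written names measured, set the members in their pathway. In the wider cytosolic Hsp70, Hsp90 and Hsp40 system, 0 of 31 genes rose and 2 fell in wild-type spleen, and 0 rose and 4 fell in knockout spleen, where 4.16% and 9.71% of all genes fell. The list's median was 0.03 and -0.32, and the first turned negative under quantile normalization (-0.01). Without the 3 arrays high in pancreas markers, an alternative chosen for the lists after seeing the data, the list's medians were -0.18 and -0.25. Over all genes they were -0.01 and -0.22. That fit leaves knockout control 2 as the only knockout control. Without the wild-type controls of male pattern, 0 fell in wild-type spleen, where 1.30% of all genes fell. Hspa4l, an Hsp110 relative of Hsph1, read 48, 137 and 61 in untreated wild-type mice and 22, 15 and 17 after LPS (-2.05 ± 0.44, adjusted p = 0.0201). Knockout arrays read 126, 90 and 43, and 14, 16 and 22 after LPS (-2.21 ± 0.44, adjusted p = 0.00865). These low LPS values lie well under the array medians, so their size is bounded by the floor of the arrays.

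Ahsa2, related to the activators of the Hsp90 ATPase, read 208, 241 and 138 in untreated wild-type mice and 83, 52 and 47 after LPS. Its fall was -1.70 ± 0.37 in wild-type (adjusted p = 0.0213), and knockout mice showed one of -2.09 ± 0.37 (adjusted p = 0.00462). Chordc1, an Hsp90 co-chaperone, fell in knockout spleen from 373, 897 and 533 to 171, 54 and 172 (-2.27 ± 0.51, adjusted p = 0.0155) and gave -1.33 ± 0.51 in wild-type spleen (adjusted p = 0.177). Cdc37, which brings kinases to Hsp90, fell in knockout spleen (-0.97 ± 0.22, adjusted p = 0.0167) and gave -0.09 ± 0.22 in wild-type spleen (adjusted p = 0.913). The knockout falls of Hspa4l and Ahsa2 held with any 1 array left out. That of Chordc1 was lost without knockout control 2, and that of Cdc37 without knockout control 2 or 3 or knockout LPS 3 (adjusted p up to 0.0706). The wild-type calls of Hspa4l and Ahsa2 were lost without LPS array 2 or 3 or control 2 of the wild-type mice. That of Ahsa2 was also lost without wild-type control 1 (adjusted p up to 0.108).

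Of 27 ER chaperones and folding enzymes measured, 0 rose and 3 fell in wild-type and 0 rose and 6 fell in knockout spleen, where 4.16% and 9.71% of all genes fell. The medians were -0.33 and -0.56, beside -0.03 and -0.06 over all genes. Creld2, a target of ER stress signalling, fell in both genotypes (-1.21 ± 0.27, adjusted p = 0.0237, and -1.51 ± 0.27, adjusted p = 0.00475), from 410 to 754 in the 6 controls to 143 to 256 in the 6 LPS arrays. The disulphide isomerase relatives Txndc5 (-0.76 ± 0.19 and -1.02 ± 0.19) and Pdia5 (-1.39 ± 0.33 and -1.26 ± 0.33) fell in both genotypes as well. P4hb (-0.80 ± 0.20), Fkbp2 (-0.91 ± 0.23) and Fkbp11 (-1.18 ± 0.30) fell in knockout spleen, with -0.33, -0.41 and -0.45 in wild-type. Of these calls, those of Creld2 and Txndc5 in knockout spleen held with any 1 array left out. The knockout calls of Pdia5, P4hb, Fkbp2 and Fkbp11 were lost without LPS array 1 or 3 or control 2 or 3 of the knockout mice (adjusted p up to 0.126). In wild-type spleen, Creld2 was lost without LPS array 2 or 3 or control 1, Txndc5 without any of the 6 wild-type arrays or knockout LPS 2, and Pdia5 without any of the 3 LPS arrays, control 2 or 3, or knockout LPS 3 (adjusted p up to 0.122).

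Acinar cells of the pancreas are rich in these ER proteins, and the pancreas markers were high in 3 control arrays. Without those 3, which leaves knockout control 2 as the only knockout control, the medians of the ER list were -0.36 and -0.78. Over all genes the medians were -0.01 and -0.22 in that fit. The wild-type calls of Creld2 and Txndc5 were lost there, as were the knockout calls of Fkbp2 and Fkbp11. Without the wild-type controls of male pattern, 1 gene fell in wild-type spleen (Creld2), where 1.30% of all genes fell.

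Secretory plasma cells express several of these ER genes, so their markers were set beside them. The mean over 5 plasma cell markers was 7.31 to 7.76 in wild-type controls and 7.18 to 7.45 after LPS, and 7.57 to 8.14 in knockout controls and 7.50 to 7.96 after LPS. Among them Prdm1 rose in both genotypes (1.04 ± 0.24 and 1.87 ± 0.24) and Tnfrsf17 fell in knockout spleen (-1.25 ± 0.30). Tnfrsf17 read 50 to 98 and then 19 to 39 there. In wild-type spleen it read 34 in every control and 14 to 20 after LPS, without a call. Its LPS values lie under the array medians (47 to 63). Their part in the ER result was not tested.

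Of 9 regulators of the unfolded protein response measured, 3 rose in wild-type and 1 in knockout spleen, where 3.93% and 5.54% of all genes rose, and none fell. The medians were 0.92 and 0.58. The called rises were all lost without the 3 arrays high in pancreas markers, a fit with knockout control 2 as the only knockout control. Trib3, a pseudokinase downstream of Atf4, read 29, 20 and 29 in untreated wild-type mice and 91, 363 and 535 after LPS (3.35 ± 0.62, adjusted p = 0.0099). In knockout spleen it read 33, 29 and 27, and 200, 67 and 52 after LPS, which did not pass (1.58 ± 0.62, adjusted p = 0.134). Atf4, the transcription factor of the integrated stress response, rose in wild-type spleen (1.42 ± 0.28, adjusted p = 0.0144, and 0.81 ± 0.28 in knockout).

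Ddit3 (Chop) read 164, 173 and 183 in untreated wild-type mice and 361, 411 and 484 after LPS, a rise of 1.26 ± 0.28 (adjusted p = 0.022). In knockout spleen it read 174, 199 and 216, and 262, 108 and 143 after LPS (-0.30 ± 0.28, adjusted p = 0.588). Atf6, an ER stress sensor, rose in knockout spleen from 131, 173 and 162 to 760, 329 and 641 (1.82 ± 0.31, adjusted p = 0.00371, and 0.90 ± 0.31 in wild-type). The Atf6 call held with any 1 array left out. The wild-type calls of Trib3, Atf4 and Ddit3 were lost without wild-type LPS 3, those of Atf4 and Ddit3 also without wild-type LPS 2 or control 1, and that of Ddit3 also without control 2 (adjusted p up to 0.109). Without the 3 arrays high in pancreas markers, Eif2ak3 (Perk), an ER stress kinase, was lower with LPS in both genotypes, while the medians stayed positive (1.08 and 0.92). Knockout control 2 is the only knockout control in that fit. Without the wild-type controls of male pattern, which leaves wild-type control 1 as the only wild-type control, the medians were 0.81 and 0.58. None of the 9 passed in the interaction.

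In the other lists, the chaperonin and prefoldin genes had 1 rise in 13 in wild-type spleen, where 3.93% of all genes rose. This was Pfdn2 (1.13 ± 0.28, adjusted p = 0.0352). They had 0 calls in knockout spleen, where 5.54% of all genes rose and 9.71% fell. The Pfdn2 call was lost without knockout LPS 3, wild-type LPS 2 or 3 or control 1, or the 3 arrays high in pancreas markers (adjusted p up to 0.138 for a single array). Limma called 0 of 7 small heat shock proteins, 0 of 3 heat shock factor genes and 0 of 11 mitochondrial chaperones and proteases in either genotype. At an unadjusted p under 0.05 these lists had 1, 0 and 5 genes in wild-type and 2, 1 and 3 in knockout spleen, where 21.4% and 28.2% of all genes did.

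**Figure D4:**
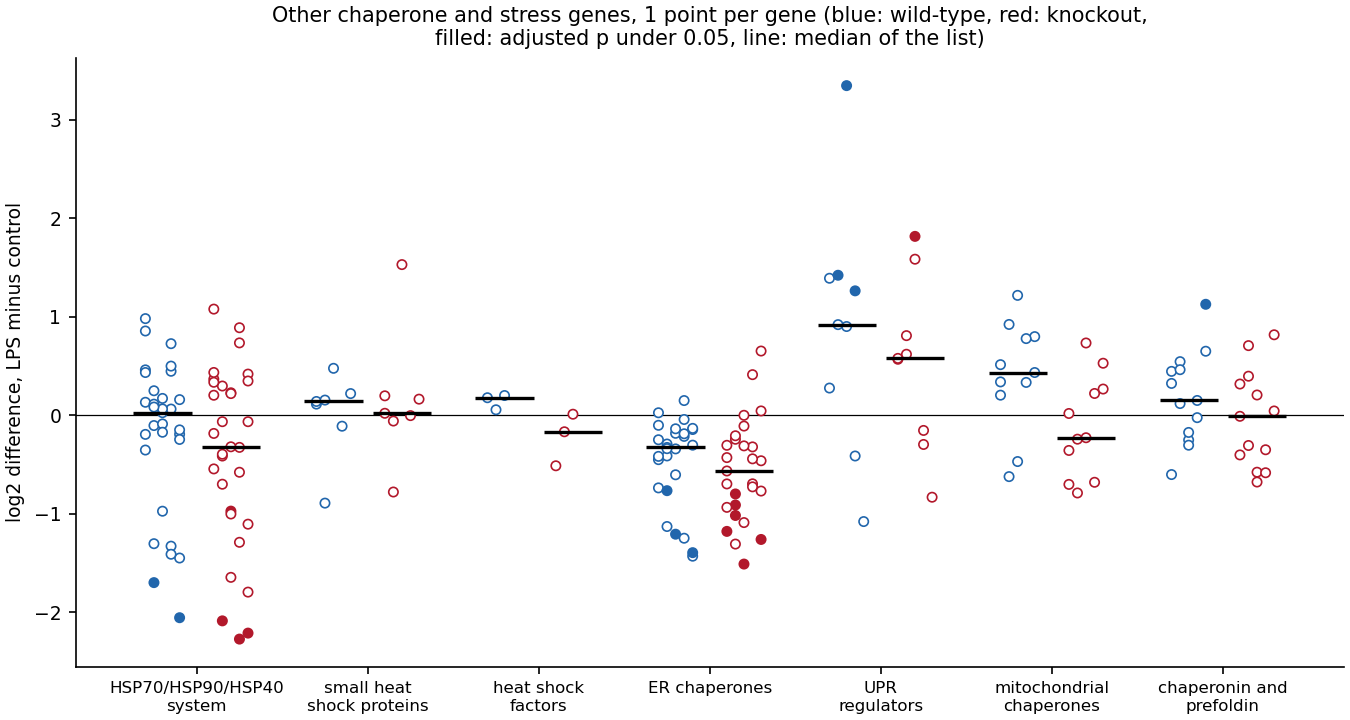
Log2 difference between LPS and control spleen for each measured gene of the 7 lists, in wild-type (blue) and knockout mice (red); filled points have an adjusted p under 0.05 and the line is the list's median. Called genes lie below 0 in the cytosolic system and the ER list and above 0 among the regulators of the unfolded protein response (UPR) with all 12 arrays, where Trib3 stands highest at 3.35 in wild-type spleen.

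For 4 members the 3 genes of most similar pattern were found by Pearson's r of log2 intensity over the 12 arrays, among 8098 genes above the 40th percentile of mean signal. These values describe these arrays, which differ by group. Hspa1b was followed by Hspa1a (r = 0.98; Spearman's rho of the 3 genes 0.79 to 0.92), the actin regulator Wasf2 (0.95) and the actin crosslinker Flna (0.94), and r stayed at 0.90 to 0.97 without wild-type controls 2 and 3, the arrays farthest from its median. Wasf2 was highest in wild-type control 3 (2210), as Hspa1b was.

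Hspa8 was followed by the elongation factor subunit Eef1b2 (r = 0.99; rho of the 3 genes 0.73 to 0.83), Chtop (0.98) and Ube2d2a (0.96). Each of these had its lowest value in knockout control 2, with Eef1b2 at 1362 against 4115 to 5269 elsewhere. Without that array and knockout LPS 2, r was 0.71 to 0.82. Hspa5 was followed by the splicing factor Srsf3 (r = 0.98; rho of the 3 genes 0.83 to 0.98), Tex10 (0.95) and the integrin Itgav (0.94), with knockout control 2 again lowest in all of them and r at 0.76 to 0.93 without it and knockout LPS 3. Hspd1 was followed by the Krebs cycle enzyme Idh3a (r = 0.92; rho of the 3 genes 0.67 to 0.78), Rsl1d1 (0.91) and the deubiquitinase Usp14 (0.90), with values lowest or next to lowest in both control arrays numbered 3 and r at 0.73 to 0.84 without those arrays.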

How the data were processed

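Intensities of spleen RNA on 12 arrays were deposited as 1 linear, whole-number value per probe set, made by the authors with RMA in the R affy package, per the series' design text and the submitters' processing notes; no version is given in the sources used here. Groups and replicate numbers came from the sample titles. The values, from 6 to 15228 with array medians of 47 to 63, were log2-transformed here without further scaling. Of 22690 probe sets, 64 controls were left out. GEO's platform table gave 1 gene for 20380 sets, several for 691 and none for 1555, and sets with several genes were not named. A gene was represented by its brightest probe set, with sets ending in _x_at used only where there was no other.

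A linear model of 4 group means was fitted to all 12 arrays with limma 3.58.1 in R 4.3.3 (8 residual and 2.72 prior degrees of freedom), with two-sided moderated tests and Benjamini-Hochberg adjustment over 22626 probe sets at a threshold of 0.05. A ± after a log2 difference is limma's standard error. The fit was tested on simulated data. The number of arrays limits the precision. Members were listed by name, but they, the lists and the arrays set aside were chosen with earlier results of these data known. Beside the members, named genes were the called genes of each list (up to 6), the 3 most similar genes for 4 members, and markers. Same-numbered arrays correlated in their deviations by more than 0.1 in 6 of 12 pairs (-0.28 to 0.63), and the labels describe individual mice. In neither LPS comparison, nor between genotypes after LPS, did every pair exceed 0.1, so the numbers were not used to pair samples there. Between the control groups all 3 pairs did (0.14 to 0.28), and the block left the count of members called there at 0.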

Additional observations from a re-analysis of the deposited data

How the results depend on the processing

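The number of members called after LPS in wild-type spleen, 1 in the fit reported, was 2 after shifting arrays to a common median or cyclic loess, and 3 with only probe sets above the 40th percentile. It was 4 with array weights or without the 3 arrays high in pancreas transcripts, and 0 with only the 2 groups compared, with the mean over a gene's probe sets, or without the 2 arrays of male pattern. Leaving out 1 array gave 0 to 3 in wild-type and 2 in knockout spleen. In the fits without the arrays high in pancreas transcripts or of male pattern, the share of all genes called as lower moved too. The counts are thus not read as particular to the members. With the replicate number as a block, 3 members were called in wild-type spleen (Hspa1b, Hsph1 and Dnajb1) and 2 in knockout spleen. Without the 3 arrays high in pancreas transcripts the count was 6 in knockout spleen (4 lower, and Hspa5 and Hspa8 higher), 1 between controls (Hspa8) and 1 in the interaction (Hspa8), each resting on knockout control 2 as the only knockout control. Array weights gave 1 between genotypes after LPS (Hspe1). Over 45 differences of members and 1071 refitted values, 31 changed their side of the threshold; 49 changed sign, none of them a called difference. Shifting to a common median moved the median of all probe sets by 0.12 in wild-type and 0.22 in knockout spleen; the falls of Hsph1 and Dnajb1 in knockout spleen, -1.79 and -2.04 there, held in all 24 alternatives. Causes were not tested. Signal near the floor limits Hspa1a and Hspa1b after LPS.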

Other observations

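Among mitochondrial chaperones and proteases, 9 of 11 genes had lower values in knockout than in wild-type spleen after LPS, where 5813 of all 12393 genes did. The list's median log2 difference was -0.44, but none of the 11 passed. Dnaja3, a mitochondrial J-domain protein (-1.05 ± 0.26, adjusted p = 0.174), Grpel2, a nucleotide exchange factor (-0.87 ± 0.25, adjusted p = 0.251), Trap1, the mitochondrial Hsp90 (-0.64 ± 0.21, adjusted p = 0.343), and Clpp, a protease subunit (-0.80 ± 0.34, adjusted p = 0.521), had unadjusted p-values under 0.05. In each of these 4, all 3 knockout LPS arrays lay below all 3 wild-type LPS arrays. Genes picked by a low p-value in the same comparison largely do so, so this adds no support. Over all genes, not picked by p-value, 9.6% did so. In the same comparison 10.2% of all genes had an unadjusted p under 0.05, and the median of all genes was 0.02. These genes are named after their values were seen.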
